A study of Mus musculus with 10 samples.

Results

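Immunoglobulin light chain variable genes were examined in B cells of the mouse spleen, divided by whether they secreted the regulatory cytokine IL-10. They were taken as the array probes whose target name begins with IGKV, IGK-V, IGLV or IGL-V, which gave 29 of the 45281 probes on the array, under 26 of 30854 target names. Of these, 27 probes belong to the kappa light chain and 2 to the lambda light chain. The cells came from spleens of C57BL/6 mice, and the labels name no mutant allele, transgene or age. There were 5 arrays of IL-10+ cells, 3 arrays of IL-10- cells and 2 arrays of total B cells, on 2 slides. Per the labels, B cells of every group were cultured for 5 h with 10 µg/ml of LPS, 50 ng/ml of PMA and 500 ng/ml of ionomycin, agents that activate B cells through a Toll-like receptor, protein kinase C and calcium. IL-10+ and IL-10- cells were separated by a secretion assay and flow sorting, and whether total B cells had the same stimulation rests on the shared text.

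Each B cell builds its light chain by joining a variable segment to a joining segment in the kappa locus or, less often in mice, in the lambda locus. The chosen segment then pairs with a heavy chain to form the antigen receptor, so a sorted population carries a repertoire of segments, and antibody-secreting cells hold much more of this RNA than resting B cells. The level of a segment on an array therefore combines the share of cells that use it with the RNA in each of those cells, and in bulk samples fewer cells of a type and less RNA per cell cannot be told apart. Variable segments of a subgroup, the number before the hyphen in a name such as IGKV4-91, resemble each other in sequence, and how far a probe also binds relatives was not tested. Levels below are log2 values after background correction and quantile normalization, and they are compared between arrays for the same probe, never between probes.

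A probe was called detected where its detection score, which rises with signal, was above 0.99 on at least 2 arrays. By this rule 25 light chain variable probes were detected and 4 were not, against 16496 detected among all 45281. Both lambda probes and 23 of 27 kappa probes were detected. The undetected probes were IGK-V, IGKV12-E, IGKV13-78-1 and IGKV4-75. None of the 4 was detected on any array, their intensities lay between 111.9 and 171.6 and their highest score was 0.980. No probe was detected on exactly 1 or exactly 2 arrays, and the probe nearest the limit was IGKV6-13, detected on 6. In IL-10+ cells 25 probes were detected on all 5 arrays. On IL-10- arrays 22 of the 25 were detected on all 3, IGKV2-112 and IGKV4-90 on 1 of 3 and IGKV6-13 on none. On the total B arrays 23 were detected on both, and IGKV4-90 and IGKV6-13 on 1 of 2.

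In all, 19 kappa names equalled a RefSeq symbol, and IGK-V33 and IGK-V38 are synonyms of Igkv13-84 and Igkv19-93, all on chromosome 6. IGL-V1 is a synonym of Iglv1 on chromosome 16. Together, 24 probes matched a RefSeq gene, 20 of them to one annotated as a variable segment and 4 to one annotated as a variable segment pseudogene. Of the pseudogene probes, IGKV13-78-1 and IGKV4-75 were undetected, while IGKV8-31 and IGKV9-128, were detected on every array. The names IGK-V, IGK-V1, IGK-V5 and IGKV12-E matched no gene. Each value rests on 25 to 72 beads, and the standard error between beads was 1.84% to 6.65% of the intensity for detected members. The number of arrays also limits the precision.

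Between 13910 and 15610 of all probes were detected per array. The level of Il10, whose product set the sort, was 12.90, 13.65, 13.20, 13.04 and 13.12 in IL-10+ replicates 1 to 5, against 7.92, 7.77 and 7.55 in IL-10- replicates 2, 3 and 5. It was 10.63 and 9.89 in total B replicates 1 and 2. Of 12 probes of B cell markers 11 were detected, with summed raw intensities of 16458 to 26011 in IL-10+ cells, 12473 to 25598 in IL-10- cells and 13612 to 22275 in total B cells. After normalization their mean level was 9.20 to 9.47 in IL-10+ cells, 9.64 to 10.16 in IL-10- cells and 9.44 to 9.46 in total B cells. In IL-10+ against IL-10- cells 5 of the 11 fell and none rose, where 7.98% of all tested probes were lower and 8.72% higher. Those that fell were both detected Cd22 probes (by 2.43-fold and 2.76-fold), both Cd79b probes and Ms4a1. Against total B cells 2 of the 11 were lower in IL-10+ cells, both of Cd79b, and 1 was higher. The higher one was Ms4a1 (1.58-fold, limma adjusted p of 0.00919), where 9.83% of all tested probes were lower and 10.8% higher. Of 10 probes of T cell markers 1 was detected, that of Cd3g, and those of Cd3d and Cd3e were not. The Cd3g probe, near background, was at 5.71 in IL-10+ cells, where 3 of 5 arrays detected it, against 4.71 in IL-10- cells and 4.81 in total B cells, where none did, with limma adjusted p values of 0.00513 and 0.0122. Of 12 macrophage and monocyte probes 3 were detected and none passed, with summed intensities of 516 to 773 in IL-10+ cells, 489 to 674 in IL-10- cells and 417 to 547 in total B cells. The part of these markers in the results below was not tested.

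Setting IL-10+ against IL-10- cells asked whether cells that secrete the cytokine carry different light chain RNA from cells that do not. In IL-10+ cells 18 of 25 light chain variable probes were higher, none was lower and 7 did not pass a limma adjusted p of 0.05. Of the 18, IGKV6-13 met the detection rule only through its IL-10+ arrays, since no IL-10- array and 1 total B array detected it. Among all 16496 tested probes 8.72% were higher and 7.98% lower by the same criterion. The median change was 2.03 log2 over the 25 probes and -0.02 over all tested probes. Each of the 18 rises exceeded 2-fold, where 3.72% of all tested probes passed with such a rise, and 13 of the 18 exceeded 4-fold. For 19 of 25 probes every IL-10+ array lay above every IL-10- array, against 11.4% of all tested probes. Changes ran from 0.49 to 3.32 log2, and all 25 lay above 0, as did 48.1% of the tested probes.

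**Figure D1:**
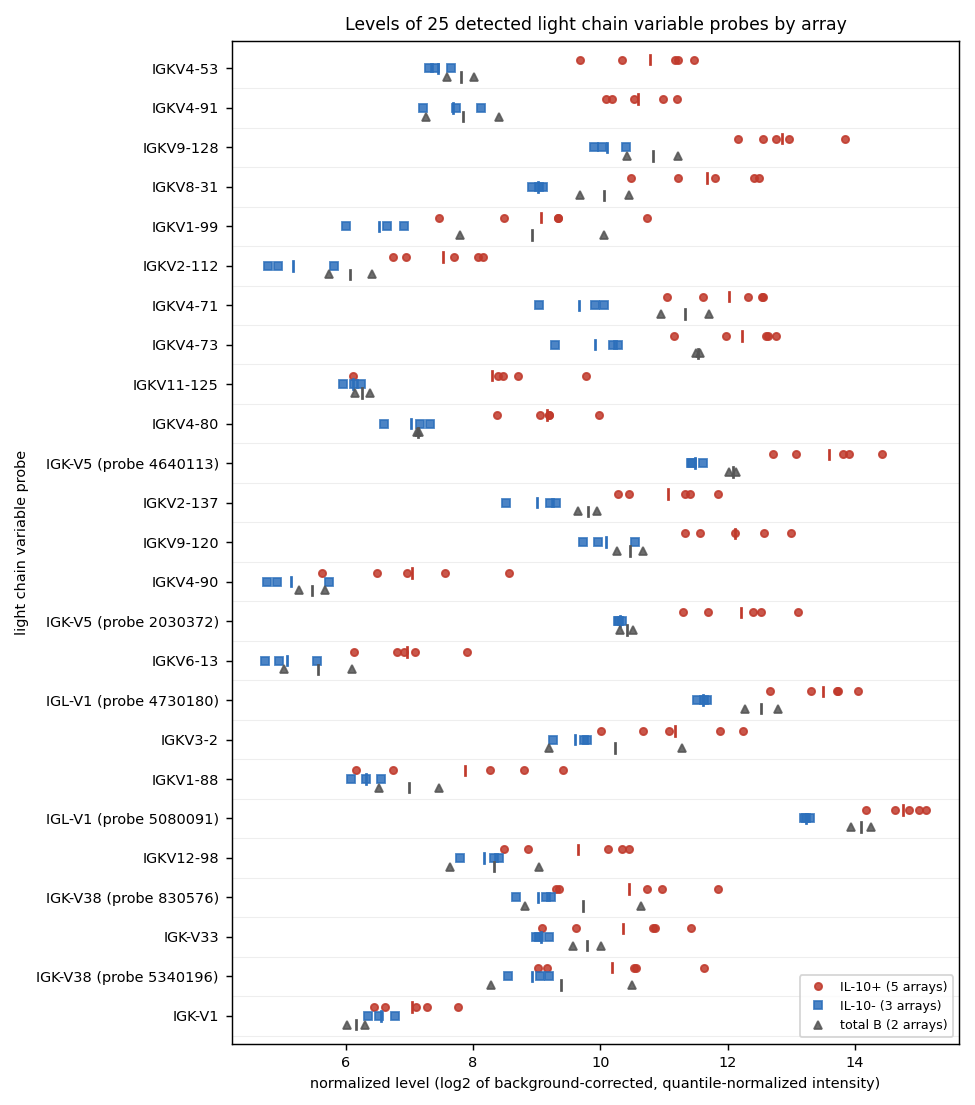
Normalized log2 level (x axis) of the 25 detected light chain variable probes (y axis, ordered by the change between IL-10+ and IL-10- cells). Each point is an array, with red circles for 5 IL-10+ arrays, blue squares for 3 IL-10- arrays and grey triangles for 2 total B arrays, and the vertical bar is the group mean. For 19 probes the red points stand clear to the right of the blue ones, and for 24 the total B mean lies between the other means.

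Subgroup 4 of the kappa segments had the most members on the array, and 6 of its 7 probes were detected. These 6 passed, all higher in IL-10+ cells, with changes of 1.91 to 3.32 log2. IGKV4-53 had levels of 11.47, 9.68, 10.34, 11.17 and 11.21 in IL-10+ replicates 1 to 5, against 7.66, 7.41 and 7.30 in IL-10- replicates 2, 3 and 5. Even the lowest IL-10+ array lay above the highest IL-10- array by a wide margin. Its rise of 3.32 ± 0.36 log2 (SE, n = 5 and 3), which is 9.96-fold, had an adjusted p of 0.000302 in limma, and it was the largest among the 25 probes. IGKV4-91, a segment known from mouse B-1 cells that bind phosphatidylcholine, was at 10.18, 10.09, 10.99, 10.53 and 11.20 in IL-10+ replicates 1 to 5. In IL-10- replicates 2, 3 and 5 it was at 7.74, 8.12 and 7.22, again with no overlap. The rise was 2.90 ± 0.33 log2 (SE), which is 7.48-fold, and the adjusted p in limma was 0.000438. Among IL-10+ arrays its SD was 0.49, lower than that of every other kappa probe.

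IGKV4-80 was at 9.20, 8.38, 9.20, 9.06 and 9.98 in IL-10+ replicates 1 to 5 and at 7.32, 7.16 and 6.61 in IL-10- replicates 2, 3 and 5. It rose 4.38-fold, and the groups did not overlap. IGKV4-71 rose 5.08-fold, with a mean level of 12.01 ± 0.66 in IL-10+ cells and 9.67 ± 0.55 in IL-10- cells (SD, n = 5 and 3), and IGKV4-73 rose 4.94-fold, with 12.22 ± 0.67 in IL-10+ cells and 9.92 ± 0.55 in IL-10- cells. Across probes, IL-10+ and IL-10- arrays with the same replicate number deviated together, but these 2 probes did not follow. Several other light chain variable probes did not either, among them IGKV4-53, IGKV4-80, IGKV4-91 and IGKV9-128. Among replicates 2, 3 and 5, replicate 5 was highest in IL-10+ cells (12.56 for IGKV4-71 and 12.76 for IGKV4-73). In IL-10- cells it was lowest (9.04 and 9.28). With the replicate number as a block IGKV4-71 and IGKV4-73 had limma adjusted p values of 0.0527 and 0.0531. IGKV4-90 passed with a change of 1.91 ± 0.53 log2 (SE), but its IL-10+ levels of 8.57, 5.63, 6.49, 7.56 and 6.97 overlapped the IL-10- levels of 5.73, 4.76 and 4.92. With the replicate block its change was 1.22 and the limma adjusted p 0.126, and it lost the call when any of 4 of the 10 arrays was dropped, the adjusted p in limma reaching 0.0966 when IL-10- replicate 3 was dropped.

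The 3 probes of subgroups 8 and 9 rose in IL-10+ cells. IGKV9-128 was at 12.55, 12.16, 12.76, 12.96 and 13.85 in IL-10+ replicates 1 to 5, against 10.03, 10.40 and 9.90 in IL-10- replicates 2, 3 and 5. Its 6.71-fold rise had a limma adjusted p of 0.000655, with no overlap between the arrays. IGKV8-31 was at 12.48, 10.48, 11.22, 11.80 and 12.41 in IL-10+ replicates 1 to 5, against 9.09, 8.92 and 9.04 in IL-10- replicates 2, 3 and 5, a rise of 6.31-fold. Both are annotated as pseudogenes in RefSeq, so which transcripts these probes bind is uncertain. IGKV9-120, not annotated as a pseudogene, averaged 12.11 ± 0.69 in IL-10+ cells and 10.08 ± 0.42 in IL-10- cells (SD, n = 5 and 3). Its 4.09-fold rise had a limma adjusted p of 0.05005 with the replicate block.

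Subgroup 2 segments rose as well. IGKV2-112 was at 8.08, 6.74, 6.95, 7.70 and 8.16 in IL-10+ replicates 1 to 5 and at 4.94, 5.81 and 4.78 in IL-10- replicates 2, 3 and 5, where 1 of 3 arrays detected it. The 5.09-fold change thus sets a detected level against a level mostly near background. IGKV2-137 averaged 11.06 ± 0.67 in IL-10+ cells and 9.01 ± 0.43 in IL-10- cells (SD, n = 5 and 3), a 4.15-fold rise. IGKV6-13 was undetected on the 3 IL-10- arrays, and its level of 6.97 ± 0.64 in IL-10+ cells (SD, n = 5) was at least 2.37-fold higher than the lowest detected signal or its own value on those arrays, with a measured mean of 5.08 in IL-10- cells and a limma adjusted p of 0.00702. The 2 probes named IGK-V5 rose 4.27-fold and 3.74-fold, with no overlap for either.

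IGKV11-125 and IGKV1-99 passed with wide spread. IGKV11-125 was at 8.46, 6.11, 9.78, 8.71 and 8.39 in IL-10+ replicates 1 to 5 and at 5.96, 6.13 and 6.24 in IL-10- replicates 2, 3 and 5. The IL-10+ replicate 2 array sat among the IL-10- arrays and replicate 3 was the highest. Its change of 2.18 ± 0.61 log2 (SE) had a limma adjusted p of 0.0328, of 0.103 with the replicate block and of up to 0.0909 in the 7 of 10 omissions of a single array in which it did not pass, the highest without IL-10- replicate 2. IGKV1-99 was at 9.33, 7.47, 8.49, 9.33 and 10.73 in IL-10+ replicates 1 to 5 and at 6.65, 6.91 and 6.01 in IL-10- replicates 2, 3 and 5, a 5.84-fold rise with no overlap. Its limma adjusted p was 0.0255, and 0.0989 with the replicate block. Dropping any of 4 of the 10 arrays also ended its call, the adjusted p in limma reaching 0.0705 when IL-10- replicate 5 was dropped.

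The 7 probes that did not pass had changes of 0.49 to 1.57 log2 and limma adjusted p values of 0.0606 to 0.234. They were IGKV3-2, IGKV1-88, IGKV12-98, IGK-V33, IGK-V1 and both IGK-V38 probes. IGK-V1 had the smallest change, 0.49, with a 95% interval of -0.10 to 1.08. Its levels were 7.76, 6.44, 6.62, 7.10 and 7.28 in IL-10+ replicates 1 to 5 and 6.77, 6.36 and 6.53 in IL-10- replicates 2, 3 and 5, which overlap. IGK-V38 (probe 5340196) changed by 1.25, with an interval of -0.10 to 2.61, and IGK-V33 by 1.29, with an interval of 0.30 to 2.28. These tests do not show that the segments were alike in the fractions.

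The lambda segment Iglv1, measured by 2 probes named IGL-V1, was higher in IL-10+ cells on both. The first of them (probe 4730180) was at 14.05, 12.66, 13.31, 13.74 and 13.72 in IL-10+ replicates 1 to 5 and at 11.68, 11.51 and 11.64 in IL-10- replicates 2, 3 and 5. The second (probe 5080091) was at 15.12, 14.18, 14.62, 15.00 and 14.84 in IL-10+ replicates 1 to 5 and at 13.20, 13.22 and 13.29 in IL-10- replicates 2, 3 and 5. No IL-10+ array overlapped an IL-10- array on either, and the IL-10- arrays lay within a narrow band. The rises were 3.69-fold and 2.86-fold, with limma adjusted p values of 0.00167 and 0.00100. The second probe reached an intensity of 42505 in IL-10+ replicate 4, where the highest intensity in the table was 61546. Whether its smaller change reflects the top of the scale was not tested.

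Light chain constant genes, which encode the shared ends of the chains, and joining segments were measured by 3 probes, of which 2 were detected and 1 rose. IGK-C, the kappa constant gene, was at 15.54 ± 0.22 in IL-10+ cells and 14.72 ± 0.04 in IL-10- cells (SD, n = 5 and 3), a 1.76-fold rise with a limma adjusted p of 0.00424. Its raw intensity reached 58176 in IL-10+ replicate 1, against 61546 at the top of the table, and whether this limits the fold was not tested. It was also at 14.94 ± 0.05 in total B cells (SD, n = 2), where IL-10+ cells were 1.51-fold higher with a limma adjusted p of 0.0261. IGLC2, a lambda constant gene that in mice joins mainly to segments other than Iglv1, changed by 0.21 ± 0.20 log2 (SE) between IL-10+ and IL-10- cells, with a limma adjusted p of 0.511. The joining segment IGLJ4 was undetected.

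Of 35 detected heavy chain variable probes, which encode the partner chain, 29 rose in IL-10+ against IL-10- cells and none fell. The median change was 2.42 log2, and 8.72% of all tested probes were higher. Several of the 35 met the detection rule only through IL-10+ arrays, such as IGHV1S12, detected on 4 of 5 of these and on no other array. For such probes a fall could not have been seen. The largest rises were those of IGH-V11 (48.1-fold) and IGHV10S3 (16.3-fold), each detected on 2 of 3 IL-10- arrays. IGHV12S1 rose less than these, 7.09-fold, at 9.67 ± 0.53 in IL-10+ cells and 6.84 ± 0.43 in IL-10- cells (SD, n = 5 and 3). Its heavy chain subgroup is known to pair with a kappa 4 chain in mouse B-1 cells. Of 8 detected probes of heavy chain constant genes and the joining chain, 6 rose, and 2 of the 8 are IGH-VJ558 probes also counted among the variable ones. Of 20 probes for surrogate light chain and rearrangement genes 8 were detected and 1 passed. It was Vpreb3, a relative of the surrogate light chain, at 5.33 ± 0.29 in IL-10+ cells and 6.86 ± 0.50 in IL-10- cells (SD, n = 5 and 3), which fell by 1.52 log2 and was detected on 2 of 5 IL-10+ arrays. Probes for Rag1 and Rag2, the recombinase genes, and for Dntt, which adds bases at the joins, were undetected.

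Plasma cell markers moved with the light chain variable probes between IL-10+ and IL-10- cells, but only in part between IL-10- and total B cells. Of their 9 probes, which number 2 for Prdm1, 4 were detected, and the summed intensity of these was 5336 to 9177 in IL-10+ cells, 1319 to 1739 in IL-10- cells and 1093 to 2143 in total B cells. Jchain, which links antibody units, rose 5.57-fold, and Mzb1 3.87-fold, Fkbp11 2.95-fold and Prdm1 at least 2.02-fold on its detected probe, each in IL-10+ against IL-10- cells. Sdc1 and Derl3, the other markers of the list, were undetected. Of 11 detected plasmablast probes, which include these 4, 8 rose and none fell, where 8.72% of all tested probes were higher and 7.98% lower. Irf4, a transcription factor of the same list, did not pass, with a change of -0.55 log2, a limma adjusted p of 0.0550 and every IL-10+ array below every IL-10- array. Set against total B cells, IL-10+ cells had 5 of the 11 higher and none lower, where 10.8% of all tested probes were higher and 9.83% lower. Jchain (3.10-fold, limma adjusted p of 0.0879) and Prdm1 (1.16-fold, limma adjusted p of 0.742) did not pass there. In IL-10- against total B cells Mzb1 changed by 0.59 log2, Fkbp11 by 0.28 and Jchain by -0.85, and none of these passed. Prdm1, undetected in IL-10- cells, was lower (limma adjusted p of 0.0402), and Sec11c of the plasmablast list was higher by 0.61 log2 (limma adjusted p of 0.0470). The part of plasmablast RNA in the rise of light chain variable probes was not tested.

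**Figure D2:**
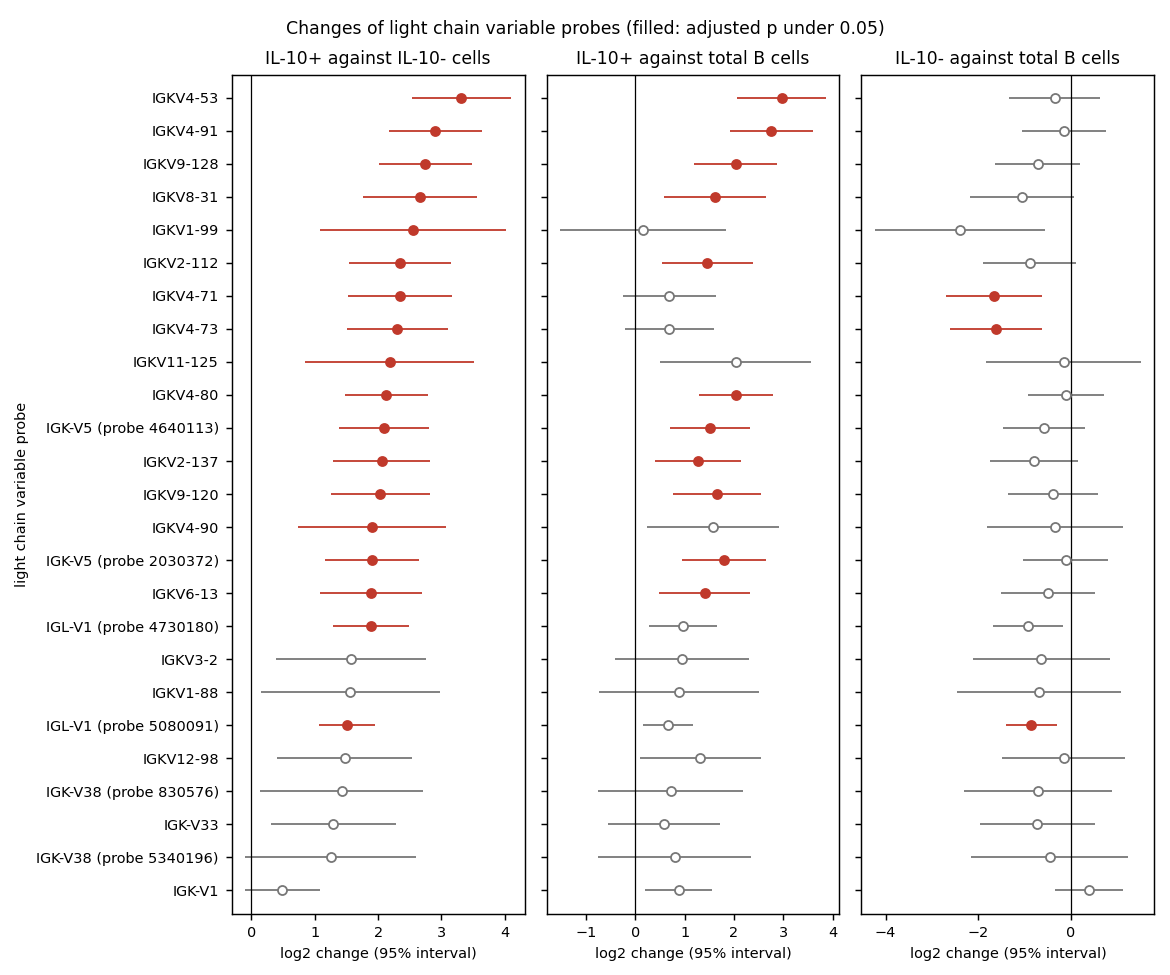
Log2 change (x axis) of each light chain variable probe (y axis) in the 3 comparisons, with 95% intervals and filled red points where the limma adjusted p was under 0.05. In the left panel 18 of 25 probes passed, in the middle panel 11 and in the right panel 3, and the largest changes of the first 2 panels were those of IGKV4-53 and IGKV4-91.

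Levels differed widely among the IL-10+ arrays themselves. The SD over 5 arrays was 0.37 to 1.38 log2 for the 25 probes, with a median of 0.69, against a median of 0.22 over all tested probes. Among probes detected on every array, 21 of 22 light chain variable probes had an SD above the 95th percentile of 0.44, which 5.00% of the 11911 such probes exceeded. Among the 3 IL-10- arrays the median SD was 0.30 for the 25 probes and 0.27 for all tested probes, and 0 of 22 lay above the 95th percentile there. For IGKV11-125 the highest IL-10+ array was 12.7-fold above the lowest, and for IGKV1-99 and IGKV1-88 the ratios were 9.59 and 9.58.

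**Figure D3:**
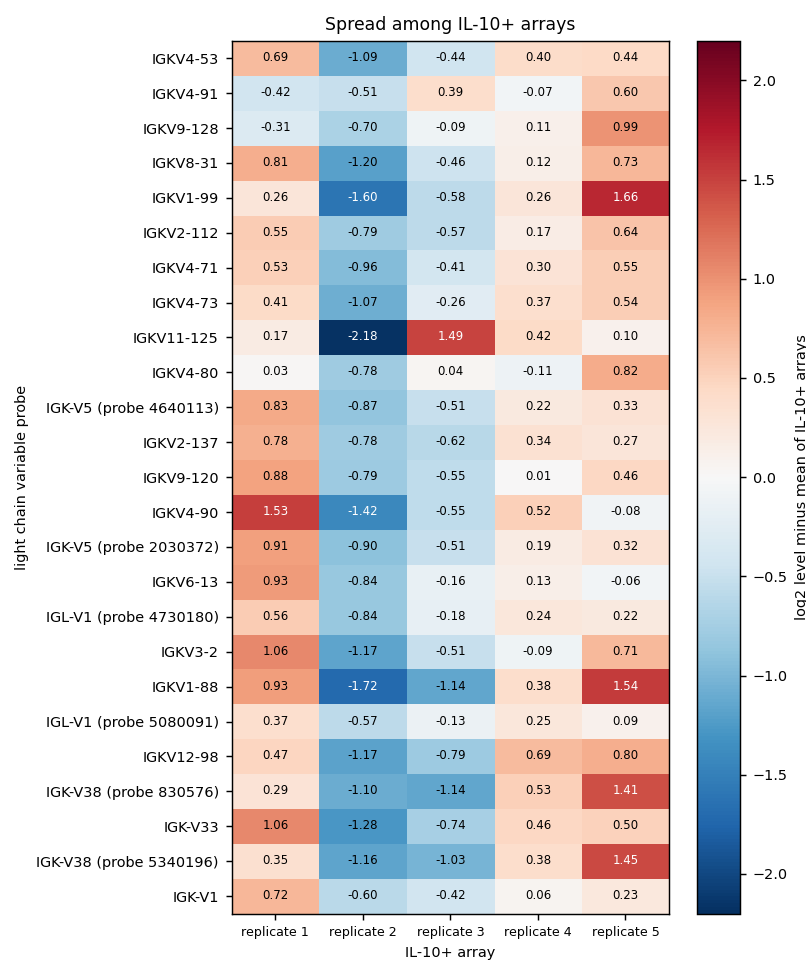
Log2 level of each light chain variable probe on each IL-10+ array minus the mean of the 5 IL-10+ arrays (colour and printed value). Replicate 2 is the lowest array for 24 of 25 probes, replicate 1 the highest for 13 and replicate 5 the highest for 11, while IGKV11-125 peaks in replicate 3 at 1.49 above its mean.

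IL-10+ replicate 2 was the lowest of the 5 arrays for 24 of 25 probes. The exception was IGK-V38 (probe 830576), at 9.31 in replicate 3 and 9.35 in replicate 2. The median level over the 25 probes was 11.42, 9.68, 10.34, 10.98 and 11.34 in IL-10+ replicates 1 to 5, against 9.19, 8.98 and 8.55 in IL-10- replicates 2, 3 and 5 and 10.06 and 9.03 in total B replicates 1 and 2. Il10 itself was highest in IL-10+ replicate 2, and replicates 1, 2 and 3 shared slide 1. Jchain was at 9.27, 6.77, 8.18, 9.40 and 9.32 in IL-10+ replicates 1 to 5, so it too was lowest in replicate 2. The mean level of heavy chain variable probes was 9.14, 7.47, 8.04, 8.56 and 8.58 on the same arrays, and replicate 2 was again the lowest. Without IL-10+ replicate 2, 22 of 25 probes passed against IL-10- cells, and the median change was 2.25 log2.

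Within the pairs of equal replicate number, 21 of 25 probes were higher on the IL-10+ array of replicate 2, 25 of 25 on that of replicate 3 and 25 of 25 on that of replicate 5. The median differences were 0.97, 1.59 and 2.84 log2 for replicates 2, 3 and 5. With the replicate number as a block 12 of the 18 probes passed, and the other 6 were IGKV11-125, IGKV1-99, IGKV4-71, IGKV4-73, IGKV4-90 and IGKV9-120. Within slide 1, which holds 3 IL-10+ and 2 IL-10- arrays, 25 of 25 changes lay above 0 with a median of 1.69, and 5 probes passed. Within slide 2, where the single IL-10- array takes its spread from the other groups, 25 of 25 lay above 0 with a median of 2.54, and 17 passed. Scaling arrays by their medians in place of quantile normalization moved the median of all tested probes to 0.49 log2 and gave 4138 probes higher and 106 lower, against 1439 higher and 1316 lower. Under that scaling the 25 light chain variable probes passed as higher, with a median change of 2.61.

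IL-10+ cells were also set against total B cells, the unsorted group. Here 11 of 25 light chain variable probes were higher and none was lower, where 10.8% of all tested probes were higher and 9.83% lower. All 25 changes lay above 0, as did 49% of the tested probes. The 11 that passed exceeded 2-fold, where 5.08% of the tested probes passed with such a rise. Both lambda probes were among the 14 that did not pass, with limma adjusted p values of 0.0501 and 0.0649. The median change was 1.32 log2, against -0.01 over all tested probes. For 12 of 25 probes every IL-10+ array lay above both total B arrays, against 20.6% of all tested probes. Under median scaling 1433 probes of the whole table were higher and 458 lower, against 1783 and 1622, and 15 of the 25 passed.

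IGKV4-53 was at 7.60 and 8.01 in total B replicates 1 and 2, below the lowest IL-10+ level of 9.68, and IL-10+ cells were 7.82-fold higher with a limma adjusted p of 0.000783. IGKV4-91 was at 8.41 and 7.27 in total B replicates 1 and 2, below the lowest IL-10+ level of 10.09. Its rise was 6.75-fold with a limma adjusted p of 0.000777. IGKV9-128 and IGKV4-80, each at about 4.09-fold, also rose. IGKV4-80 was at 7.12 and 7.15 in total B replicates 1 and 2, close to its level in IL-10- cells. The probe of IGK-V5 numbered 2030372 rose 3.47-fold, and IGKV9-120 rose 3.14-fold. The other 5 that passed were IGKV8-31, IGKV2-112, IGKV2-137, IGKV6-13 and IGK-V5 (probe 4640113), at 2.40-fold to 3.06-fold.

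IGKV4-71 and IGKV4-73 stood differently. In total B replicates 1 and 2 IGKV4-71 was at 11.70 and 10.95 and IGKV4-73 at 11.51 and 11.56, and the IL-10+ arrays overlapped these values. Their changes in IL-10+ against total B cells were 0.69 and 0.69 log2, with limma adjusted p values of 0.286 and 0.265. IGKV1-99 was at 10.06 and 7.79 in total B replicates 1 and 2, and its change of 0.15 log2 had a 95% interval of -1.53 to 1.83. No difference was detectable for that segment. IGKV11-125 changed by 2.03 ± 0.69 log2 (SE) and had a limma adjusted p of 0.0613.

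The count of 11 depended on single arrays. It was 7 without IL-10+ replicate 1, 4 or 5, 17 without IL-10+ replicate 2, and 4 without either total B array, where the remaining total B array takes its spread from the other groups. IGKV4-53, IGKV4-91 and IGKV4-80 passed in each of these 10 omissions. Both total B arrays lay on slide 2, and within that slide 21 of 25 probes were higher with a median change of 1.78.

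A further comparison set IL-10- cells, from which the secreting fraction had been sorted away, against total B cells. None of the 25 probes was higher and 3 were lower, where 6.87% of all tested probes were higher and 6.35% lower. Of the 25 changes 1 lay above 0, that of IGK-V1, against 49.3% of the tested probes. None passed with a rise over 2-fold, as 3.38% of the tested probes did. The median change was -0.63 log2, against -0.01 over all tested probes. IGKV4-71 was at 10.06, 9.91 and 9.04 in IL-10- replicates 2, 3 and 5, below both total B arrays, and was 3.15-fold lower with a limma adjusted p of 0.0420. IGKV4-73, at 10.19, 10.27 and 9.28 in IL-10- replicates 2, 3 and 5, was 3.07-fold lower with a limma adjusted p of 0.0389. IGL-V1 (probe 5080091) was 1.81-fold lower, at 13.24 ± 0.05 in IL-10- cells and 14.09 ± 0.21 in total B cells (SD, n = 3 and 2), with a limma adjusted p of 0.0464. The other lambda probe was 1.89-fold lower with a limma adjusted p of 0.0996.

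These 3 calls rest on few arrays, and the fit took their spread from all 3 groups, the 5 IL-10+ arrays included. The median SD of the 25 probes was 0.69 among the IL-10+ arrays and 0.30 among the IL-10- arrays. With the replicate number as a block in a fit of all 10 arrays none passed, the limma adjusted p values being 0.184 for IGKV4-71, 0.159 for IGKV4-73 and 0.113 for IGL-V1 (probe 5080091), while 4 of the 25 probes had an unadjusted p under 0.05. No call held without IL-10+ replicate 3 or 4, IL-10- replicate 5, or either total B array, and 1 held without IL-10- replicate 2 (IGKV4-71) or 3 (IGKV4-73). In the same comparison 19 of 35 heavy chain variable probes were lower, with a median change of -1.68 log2. For 10 of the 25 light chain probes every IL-10- array lay below both total B arrays, against 21.5% of all tested probes. Under median scaling 161 probes of the whole table were higher and 1009 lower, against 1134 and 1048, and 3 of the 25 were lower.

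**Figure D4:**
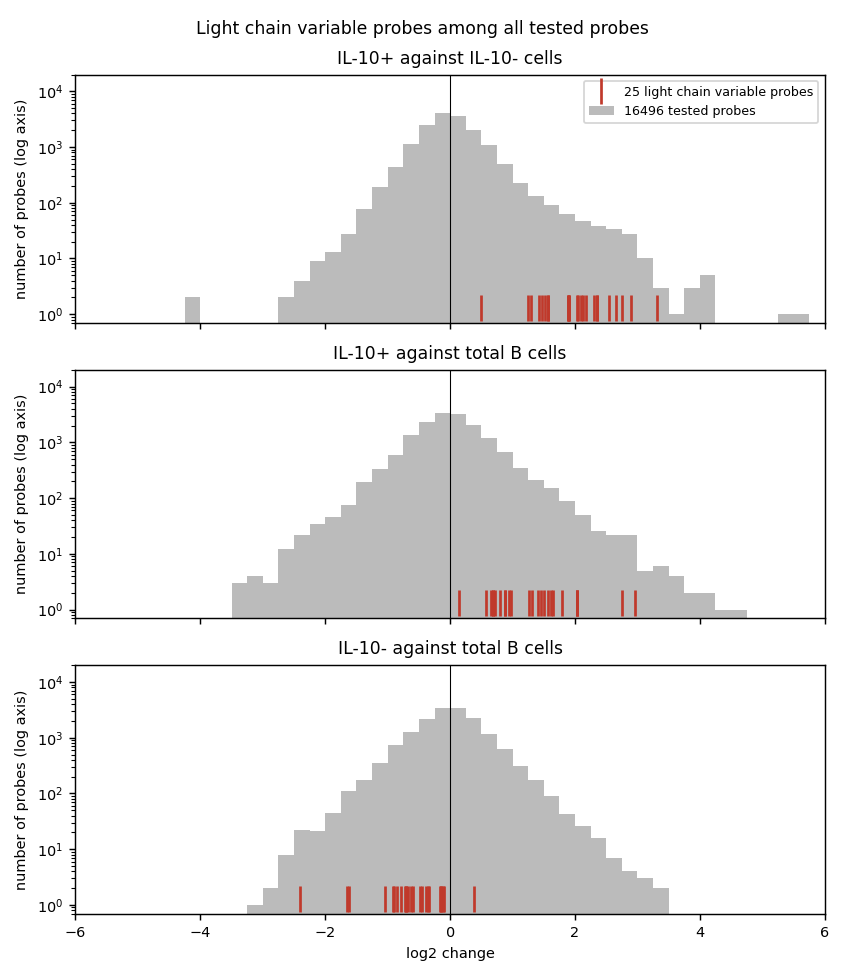
Number of probes (y axis, log scale) by log2 change (x axis) among 16496 tested probes in the 3 comparisons, with a red tick for each of the 25 light chain variable probes. The ticks lie above 0 for 25 of 25 probes in the upper 2 panels and below 0 for 24 of 25 in the lowest panel.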

How the data were processed

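The deposited table, per the file headers a GenomeStudio 1.9.0 export without normalization, holds mean bead intensity per probe, the intensity SD between beads, bead numbers and a detection score. Background subtraction by the authors is not stated. The authors' second deposited table, on a log2 scale, was not used because its identifiers could not be paired. No probe sequences or genome build were used.

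Intensities of 10 arrays were corrected for background (nec, with 1 minus the score as detection p and an offset of 16) and quantile normalized in limma 3.58.1 under R 4.3.3. The 16496 probes scored above 0.99 on at least 2 arrays were tested individually with lmFit and eBayes, 3 groups in a single fit, by two-sided tests at a Benjamini-Hochberg adjusted p of 0.05 over the 16496. The script was tested on simulated data. For folds given as "at least", the dim group was set, on each array, to the larger of the probe's value and the weakest detected signal. Probes were named where they passed, at most 12 in each direction between the sorted fractions and 6 against total B cells, with the 3 smallest changes, both lambda probes and up to 4 of each list. Members named beyond this were chosen after their values were seen.

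Members and lists were chosen with earlier results of these data known. No label ties replicates to separate animals, and p-values reflect only sample-to-sample spread, which may be technical. Deviations from group means correlated at 0.352, 0.230 and 0.328 across probes for the IL-10+ and IL-10- arrays of replicates 2, 3 and 5, numbered alike in the titles, so the numbers were taken to pair them. The pairs also share a slide. A pair with different numbers on the same slide, IL-10+ replicate 4 with IL-10- replicate 5 on slide 2, correlated at 0.283. The other IL-10+ and IL-10- pairs of this kind, all on slide 1, correlated at -0.0132, 0.0109, 0.0392 and 0.0714. Alternatives covered background, scaling, filter, probe choice, slide, replicate number and omission of each array.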

Additional observations from a re-analysis of the deposited data

How the results depend on the processing

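Between IL-10+ and IL-10- cells, 18 light chain variable probes passed, and the count stayed between 15 and 22 with single arrays left out, with 25 of 25 changes above 0 in each omission. It was 5 within slide 1 alone, where 16 had an unadjusted p under 0.05. With the replicate block 12 passed, and the cause was not tested. Against total B cells the count in IL-10+ cells was 11, but 7 without a filter on dim probes, 21 within slide 2 alone and 5 with a replicate block over 7 arrays, whose numbers are shared by 2 pairs that lie on different slides and correlated at -0.098 and -0.028. Single omissions gave 4 to 17. Between IL-10- and total B cells the count of 3 became 0 without a filter on dim probes, 0 with the 2 groups alone and 0 with slide as a block, where limma gave 5, 11 and 3 probes with an unadjusted p under 0.05, and single omissions gave 0 to 4. No other tool was run. A replicate block over all 10 arrays, added after seeing the data, gave 14 probes for IL-10+ against IL-10- cells, 8 between IL-10+ and total B cells and 0 between IL-10- and total B cells, where 4 had an unadjusted p under 0.05. Of 798 values of single probes under the alternatives, 659 kept their side of the threshold, 121 no longer passed, 18 newly passed and none changed direction. Over all probes the calls ran from 942 within slide 1 to 4244 under median scaling, against 2755, for IL-10+ against IL-10- cells. They ran from 1292 with the replicate block to 4098 with the 2 groups alone, against 3405, when IL-10+ were set against total B cells, and from 537 without total B replicate 1 to 2352 within slide 2, against 2182, when IL-10- were set against total B cells. Signal limits the folds of IGKV6-13, IGKV4-90 and IGKV2-112, which were near background in IL-10- cells. IGKV11-125 and IGKV1-99 were detected on every IL-10- array, but at low intensities, 138.9 to 198.4 and 155.9 to 192.8. Whether this limits their folds was not tested.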

Other observations

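The 2 total B arrays differed from each other in which light chain segments were high. For 7 of 25 probes they differed by over 1 log2, as 2.03% of all tested probes did, and the median absolute difference was 0.52 log2 for the 25 probes and 0.24 for all tested probes. Replicate 1 was higher for IGKV1-99 by 2.26 log2, for IGKV3-2 by 2.10 and for the IGK-V38 probes by 2.23 and 1.81, while replicate 2 was higher for IGKV12-98, with a difference of -1.40 as replicate 1 minus replicate 2, and for IGKV6-13, with -1.06. Opposite signs within the same pair of arrays were thus seen between segments.

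Probes that share a name gave changes between IL-10+ and IL-10- cells of 1.25 and 1.42 log2 for IGK-V38 and 1.51 and 1.88 for IGL-V1. Position in the kappa locus, as the RefSeq order of 19 genes, had a Spearman correlation of -0.06 with the change between IL-10+ and IL-10- cells, a description over genes measured in the same libraries.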
